A study of Mus musculus with 1 sample.

Results

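Layer V subcerebral projection neurons were examined in single-cell RNA sequencing (sc-RNA Seq) data from the cerebral cortex of a wild-type (WT) C57BL/6 mouse sample at P0, the day of birth. They were picked out by a rule on raw counts of unique molecular identifiers (UMIs, each marking a single captured transcript), and 112 of 11062 cell barcodes met it. These 112 members were 1.65% of the 6770 excitatory barcodes (exact binomial 95% interval 1.36 to 1.99). The study examined how human SERPINA3, knocked into neural progenitors through Nestin-Cre, acts on cortical neurons, and the knock-in sample was not analysed here. All values came from 1 library whose genotype label is wild type, and the labels do not say how many animals it pooled. The members share that library and are not replicates of a condition. No test was therefore possible, and every interval is a 95% interval of counting error only.

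Projection neurons of layer V that leave the cortex send axons to the brainstem, the tectum and the spinal cord, and the corticospinal neurons of the motor cortex are the best known of them. The zinc finger factors Fezf2 and Bcl11b (Ctip2) specify them and shape their axons. At birth their axons are still growing into the spinal cord and their synapses are immature.

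Excitatory barcodes had at least 1000 detected genes, at least 2 UMIs of Neurod2 and Neurod6 together, at most 1 UMI of Gad1 and Gad2, and none of Eomes, Top2a and Mki67. For each of them 4 sums of UMIs were taken. The C sum was of the layer V genes Fam19a1, Tcerg1l, S100a10 and Arhgdib. The A sum (Adamts2, Cntn2, Hs6st2, Pou3f2) stood for layer II/III, the B sum (Rorb, Inhba, Lpl, Nwd2) for layer IV and the D sum (Hs3st4, Nxph3, Syt6, Foxp2) for layer VI. Members had a C of at least 5 that was at least 2 times each of A, B and D. The same rule with A, B or D in the place of C took 2744 layer II/III, 1236 layer IV and 768 layer VI barcodes.

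These 16 genes chose the members, so their levels describe the choice and are no finding. The median C of the members was 28.5 UMIs, with a lowest value of 6 and a highest of 90. Most members lay well inside the limit, since 99 of the 112 had a C of 10 or more. Just inside it were 7 barcodes with a C of 6 and 4 with a C of 7, and just outside it, among barcodes past the margin over A, B and D, were 3 with a C of 4 and 3 with a C of 3. The margin mattered more than the minimum. Of 531 excitatory barcodes with a C of at least 5, 419 failed the margin, and 30 of these lay between 1.5 and 2 times the highest of the other sums, while 4 members lay at exactly 2 times.

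**Figure D1:**
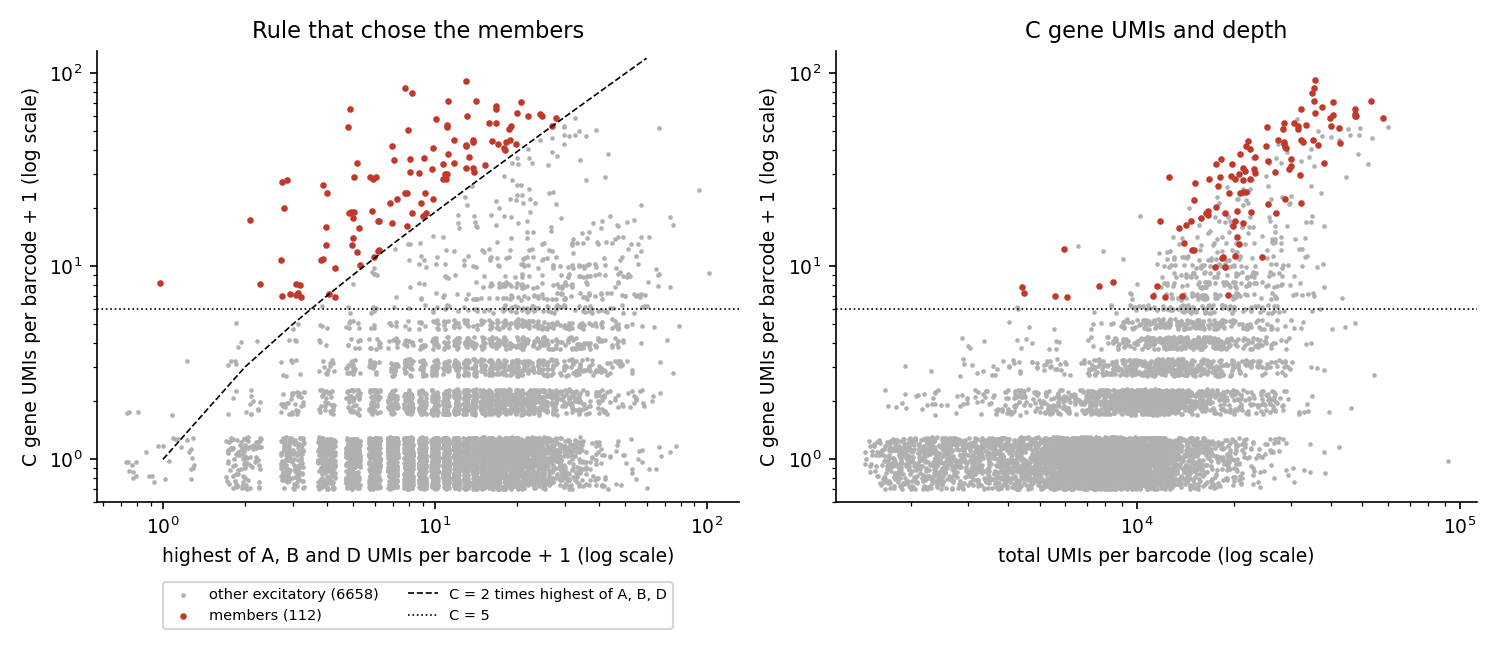
UMIs of the 4 C genes per excitatory barcode plus 1 (y, log scale) against the highest of the A, B and D sums plus 1 (x, left) and against the total UMIs (x, right), both on log scales, with small random offsets to separate equal counts; red points are the 112 members and grey points the 6658 other excitatory barcodes. The dotted line marks a C of 5 and the dashed line the margin of 2 times; most members lie far above the dotted line and at high total UMIs.

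The members were among the deepest barcodes of the library. Their median total was 21811 UMIs (quartiles 17569.5 and 31563), against 9017 in the other excitatory barcodes, 13233 under the layer IV rule, 9610.5 under the layer VI rule and 7166.5 under the layer II/III rule. Deep barcodes reach a minimum count more easily, so all barcodes were also thinned to 5000 UMIs and members taken there with a C of at least 3. The 94 barcodes so chosen, 60 of them also members by the full counts, still had a median of 26751.5 UMIs before thinning, against 10155 over all excitatory barcodes of at least 5000 UMIs. At 5000 UMIs the members held fewer detected genes (median 2323 in 110 barcodes) than the layer VI rule barcodes (2492).

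For the comparison with other excitatory neurons, each member was therefore set beside the 3 other excitatory barcodes nearest to it in total UMIs. The 336 matched barcodes had a median of 21808 UMIs and a median mitochondrial share of 3.05%, against 3.1% in the members. By the rules, 112 of them were layer IV, 59 layer II/III, 19 layer VI and 146 none of these. The match was not free of layer V transcripts, since 115 of the 336 had a C of at least 5. Doublet scores also differed: 93 matched barcodes (27.7%) were among the top 6% of the library by Scrublet score, against 1 member (0.893%). The Bcl11b, Crym and Fezf2 ratios were recomputed against matched barcodes with a C under 5, and the other genes are given for the whole matched set.

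Bcl11b, Crym and Fezf2, which the rule had not used, were higher in the members than in the matched barcodes. Members and gene lists were chosen with earlier results of these data known. The levels of these genes and lists are therefore a description and no independent support of the label. Bcl11b was counted at 959 CPM (the UMIs of a gene per 1000000 non-mitochondrial UMIs) in the members and at 228 CPM in the matched barcodes, a ratio of 4.21 (3.96 to 4.48). A member held between 0 and 65 Bcl11b UMIs with a median of 22, and a matched barcode between 0 and 45 with a median of 0. Only 3 members had none, whereas 193 of the 336 matched barcodes had none. Thinned to 5000 UMIs, 95.5% of 110 members carried a Bcl11b UMI, compared with 31.2% of 330 matched barcodes and with 5.07% of 1183 layer IV rule barcodes, a class in which Bcl11b is low. The unthinned shares were 97.3%, 42.6% and 11.3%. In the layer VI rule barcodes the unthinned share was 94.9% of 768, so Bcl11b detection was not particular to the members.

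Crym, which encodes the thyroid hormone binding protein mu-crystallin and marks corticospinal neurons, was at 301 CPM in the members and 53.1 CPM in the matched barcodes, a ratio of 5.67 (5.03 to 6.40). Its median was 3 UMIs per member, with a range of 0 to 50. Unlike Bcl11b it was missing from many members: 40 of the 112 had no Crym UMI. Fezf2 was at 232 and 92.7 CPM, a ratio of 2.50 (2.24 to 2.79), with a median of 5 UMIs per member and 6 members at 0. In all, 105 of the 112 members held Bcl11b, Fezf2 and the LIM domain binding cofactor Ldb2 together. Against the matched barcodes with a C under 5, a comparison chosen after the data were seen, the ratios were 8.48 for Bcl11b, 9.93 for Crym and 4.80 for Fezf2. Without the barcodes of top doublet score they were 4.62, 6.34 and 2.51.

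Each of the 4 C genes was also examined in barcodes that the other 3 had chosen, so that the gene itself took no part in choosing these barcodes. The 4 genes had been listed together with earlier results of these data known, so the values are a description and no independent support. Members that the other 3 genes did not choose could enter the matched barcodes, and their part in the ratios was not tested. Arhgdib, which encodes a GDP dissociation inhibitor, was 5.75-fold (4.79 to 6.92) higher in 105 such barcodes than in their own matched barcodes. Tcerg1l was 4.74-fold (4.0 to 5.63) higher in 102 barcodes, and Fam19a1, which encodes a secreted chemokine-like protein, was 3.44-fold (3.05 to 3.87) higher in 66. S100a10 (p11) was 2.42-fold (2.20 to 2.67) higher in 62 barcodes. Of the 4 genes it was found in the largest share of matched barcodes, with a UMI in 72.6% of them against 83.9% of the chosen ones.

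Of the genes outside the rule, 8943 held at least 100 UMIs in members and matched barcodes together. Among these 127 (1.42%) were at least 2-fold higher in the members and 499 (5.58%) at least 2-fold lower, and the median ratio was 0.927. A minimum of 20 UMIs per gene gave 333 and 1328 of 12915 genes, and a 3-fold limit gave 43 and 214 of the 8943. Against matched barcodes with a C under 5, 185 of 8881 genes were higher and 687 lower. When members were chosen anew at 5000 UMIs with a C of at least 3, only 3391 genes reached 100 UMIs. Of these, 32 and 121 passed.

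Over all genes, 1.42% were at least 2-fold higher in the members than in the matched barcodes and 5.58% at least 2-fold lower. In the subcerebral list, 12 of 15 genes were counted, 8 of them were at least 2-fold higher and none at least 2-fold lower, with a median ratio of 2.69. Besides Bcl11b, Crym and Fezf2 these were the axonal adhesion genes Cntn6 (4.60) and Ntng1 (4.83), the calmodulin regulator Pcp4 (3.04), the homeobox factor Otx1 (2.87) and the formin Diaph3 (2.07). Ntng1 is a membrane-anchored netrin and was low in every other class, at 51.9 CPM in the members and 10.8 CPM in the matched barcodes. Ldb2 came close to the limit at 338 and 173 CPM, a ratio of 1.96 (1.80 to 2.13). Crim1 had a ratio of 1.45, whereas Cdh13 (1.05) and the POU factor Pou3f1 (1.0) did not differ from the matched barcodes beyond counting error. Igfbp4, Cdh22 and Opn3 held too few UMIs to be counted. Etv1, an ETS factor of layer V, was at 101 CPM against 32.9 CPM, a ratio of 3.06 (2.57 to 3.65), while Tshz2, which marks other layer V neurons, had a ratio of 0.26 (0.19 to 0.35). Against the layer VI rule barcodes, 7 of 12 subcerebral genes counted were at least 2-fold higher in the members and 1 lower, with a median of 2.29. The shares over all genes there were 2.45% and 7.92%.

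Genes of callosal and upper layer neurons were mostly lower in the members than in the matched barcodes. All 14 were counted, 11 were at least 2-fold lower in the members and none higher, with a median ratio of 0.22. The rule held the A and B sums of the members low, and the matched set had 59 layer II/III and 112 layer IV barcodes. These lower levels therefore cannot be told apart from the choice of members. Cux1 was at 34.2 CPM in the members and 188 CPM in the matched barcodes, a ratio of 0.18 (0.15 to 0.23), and was missing from 68 of the 112 members and from 78 of the 336 matched barcodes. Cux2 had a ratio of 0.05, the LIM-only factor Lmo4 of 0.22 and the small heat shock gene Hspb3 of 0.04. The gene of the secreted growth factor pleiotrophin, Ptn, was at 274 CPM against 1991 CPM. Mef2c was the closest to parity, at 0.97. Against the layer VI rule barcodes the list was not low: of 11 genes counted 2 were at least 2-fold higher in the members and 1 lower, with a median of 1.35. The shares over all genes there were 2.45% and 7.92%, with a median of 0.880.

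**Figure D2:**
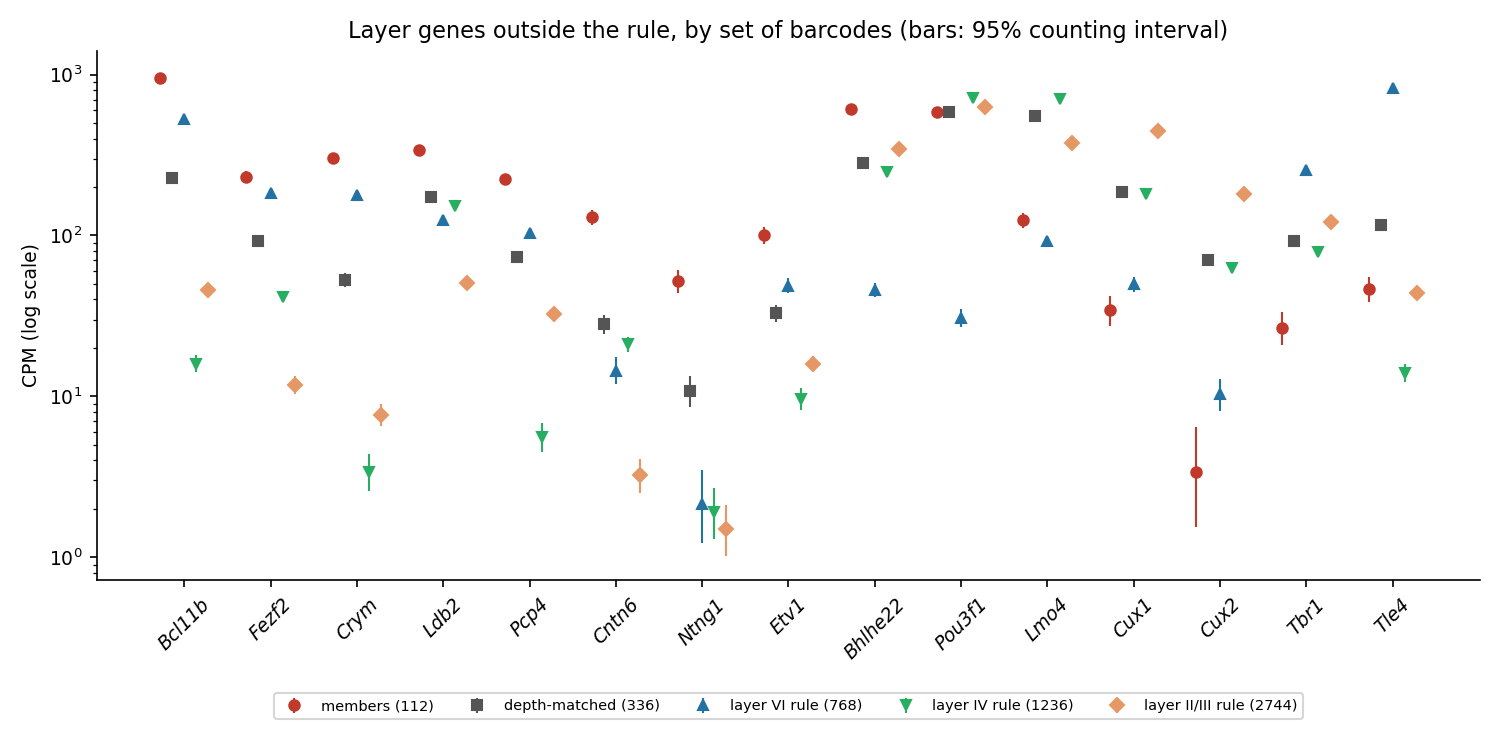
Levels in CPM (y, log scale) of 15 layer genes that the rule did not use (x), in the 112 members, the 336 depth-matched barcodes and the layer VI, IV and II/III rule barcodes; bars are exact 95% Poisson intervals of the summed counts. Bcl11b stood at 959 CPM in the members and 531 CPM in layer VI, Lmo4 at 125 CPM in the members and 701 CPM in layer IV, and Tle4 at 46.3 CPM in the members and 830 CPM in layer VI.

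The layer VI rule barcodes were the other class with high Bcl11b, and were compared with the members next. Bcl11b was only 1.81-fold higher in the members than in layer VI (959 against 531 CPM), Crym 1.69-fold and Fezf2 1.27-fold. Here depth was not matched, and the layer VI barcodes held fewer UMIs each. Of 8905 genes counted, 218 (2.45%) were at least 2-fold higher in the members than in layer VI and 705 (7.92%) at least 2-fold lower, with a median ratio of 0.880.

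Corticothalamic genes were mostly lower in the members than in layer VI. The rule asked for a D sum below C in the members and above C in layer VI. These lower levels therefore cannot be told apart from the choice of barcodes. Of the 10 counted against layer VI, 6 were at least 2-fold lower in the members and none higher. Tle4, a Groucho corepressor, was at 46.3 CPM in the members and 830 CPM in layer VI (ratio 0.06), and Tbr1, a T-box factor, at 26.7 and 255 CPM (0.10). The nuclear factor Nfia had a ratio of 0.12. Outside the list, the neurotrophin receptor Ngfr, taken from the genes ranked lowest against layer VI, had no UMI in the members. That allows a level of up to 1.13 CPM, against 53.8 CPM in layer VI. The list did not behave as a block, since Rprm was at 575 CPM in the members and 576 CPM in layer VI, and Sox5 and Nfib, at 425 and 1381 CPM, were well expressed in the members although lower than in layer VI.

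Among the genes higher in the members than in layer VI, Pou3f1 was at 584 CPM against 30.8 CPM (ratio 19.0), and the basic helix-loop-helix factor Bhlhe22 at 613 against 45.9 CPM (13.4). The cadherin Cdh8 was 20.9-fold higher, the contactin-associated gene Cntnap5a 31.3-fold, Ntng1 24.2-fold and the protocadherin Pcdh19 12.9-fold. Sorcs1, a sorting receptor of the sortilin family, was at 95.9 CPM against 1.47 CPM. Syt4, which encodes a synaptotagmin of dense core vesicles, was 9.66-fold higher. Pou3f1 and Syt4 were as high in the matched barcodes as in the members (ratios 1.0 and 0.99). Against single classes, Syt4 was 2.04-fold (1.95 to 2.14) higher in the members than in layer II/III and at 0.60 of its layer IV level (0.58 to 0.63), and Pou3f1 was at 0.93 of its layer II/III level and 0.82 of its layer IV level. Cntnap5a, Ntng1 and Sorcs1 were higher in the members than in layer VI and than in the matched barcodes. So were Cdh8, Bhlhe22 and Pcdh19, with ratios to the matched barcodes of 2.37, 2.18 and 1.63.

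Beyond the lists, the 25 genes with the highest and the 15 with the lowest ratio to the matched barcodes were taken by a rule given in the methods. Bcl11b, Crym, Cntn6, Ntng1, Pcp4 and Etv1 were among the higher ones. Cntnap5a was at 147 CPM in the members and 28.5 CPM in the matched barcodes, a ratio of 5.15 (4.35 to 6.10). Ncam2 had a ratio of 4.0, the type II cadherin Cdh7 of 5.37 and the postsynaptic adhesion gene Lrrtm4 of 3.60. Rgma, a repulsive guidance molecule that binds neogenin, was at 304 and 81.7 CPM, a ratio of 3.72 (3.35 to 4.14), and was found in 95.5% of the members. Also higher were Pex5l, which encodes an auxiliary ion channel subunit (120 against 24.1 CPM, 5.0), the glycine receptor subunit Glra2 (3.06), the calmodulin-dependent phosphodiesterase Pde1a (3.18) and the kinase anchor Sphkap (2.89). Oma1, a protease of the inner mitochondrial membrane, was at 106 and 23.2 CPM, a ratio of 4.59 (3.79 to 5.57). Ddah1, which degrades methylated arginines, had a ratio of 3.38, the amino acid transporter Slc6a15 of 3.01 and the EGR corepressor Nab1 of 3.79. The remaining higher genes were Lix1, Stk32c, Gm44645, Sorcs1, Kif26a and Ablim3, with ratios between 3.38 and 4.08.

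Among the 15 lower genes, Lhx2 was at 17.3 CPM in the members and 226 CPM in the matched barcodes, a ratio of 0.08 (0.06 to 0.10). Plxna4, a receptor for semaphorin signals, was at 31.6 and 319 CPM (0.10). The ephrin receptor Epha3 (0.10), the cadherin Cdh10 (0.09), the ligand Wnt7b (0.14) and the neuropeptide Cck (0.16) were likewise low. Fabp7 (0.13), Zbtb20 (0.17) and Igfbpl1 (0.21) are also genes of radial glia, hippocampal or young upper layer cells, and levels of such markers are given below. Others were Ptn, Cux1, Cux2, Limch1 and 9130024F11Rik, with ratios between 0.05 and 0.21. The matched set held many layer II/III and layer IV barcodes, whose sums the rule kept low in the members. These lower levels therefore cannot be told apart from the choice of members.

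**Figure D3:**
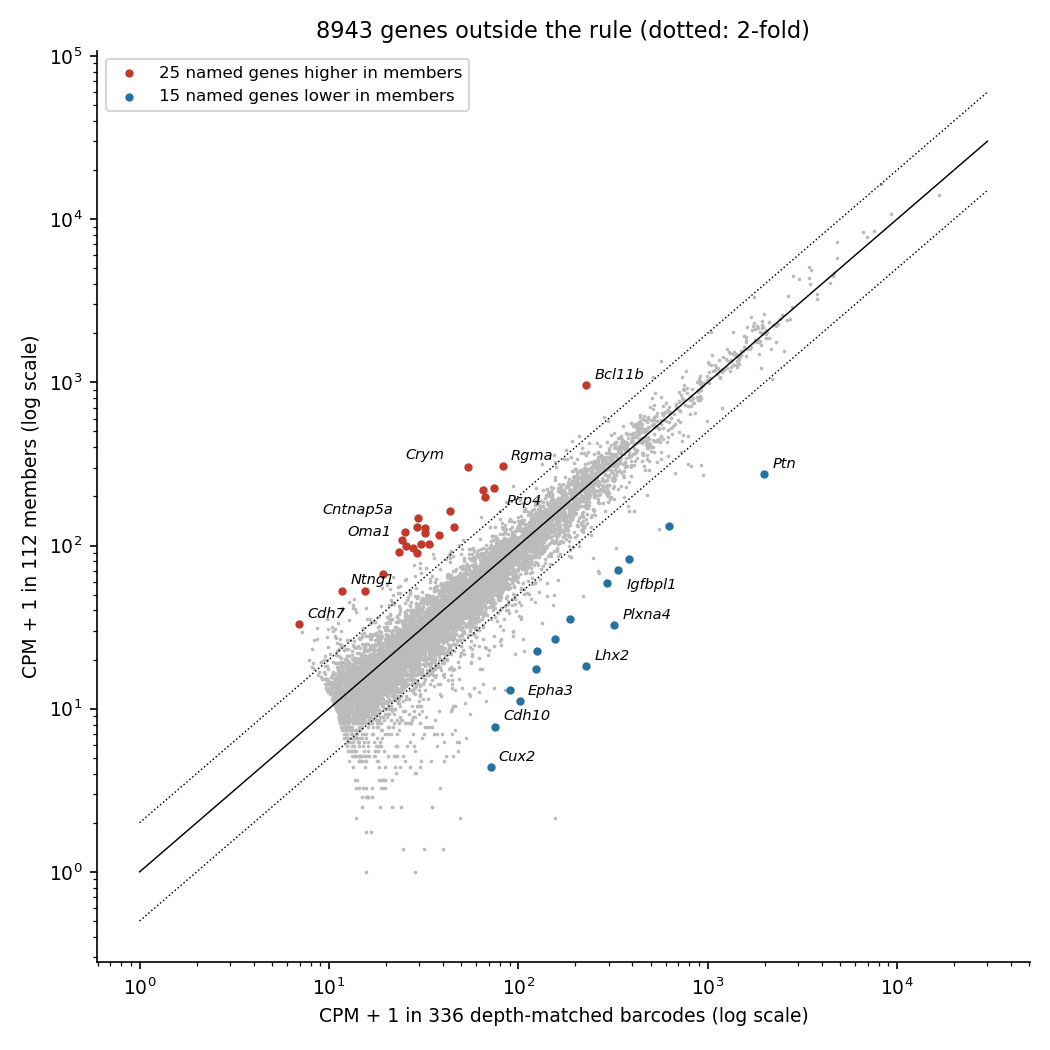
CPM plus 1 in the 112 members (y) against CPM plus 1 in the 336 depth-matched barcodes (x), both on log scales, for the 8943 genes counted; the solid line marks equal levels and the dotted lines 2-fold differences. Red and blue points are the 25 higher and 15 lower named genes; Bcl11b and Rgma lie high above the line, and Ptn, Plxna4 and Lhx2 far below it.

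Axon guidance genes were mixed. Of 20 counted, 2 were at least 2-fold higher (Cntn4 at 4.60 and the Slit receptor Robo1 at 2.14) and 3 at least 2-fold lower (Plxna4, the netrin receptor Unc5c at 0.20 and the ephrin receptor Epha4 at 0.26), with a median of 0.83, below the 0.927 of all genes. The shares over all genes were 1.42% higher and 5.58% lower. Against layer VI, 4 of 21 were at least 2-fold higher and 2 lower, with a median of 0.86 beside 0.88 for all genes. There the shares over all genes were 2.45% and 7.92%. Epha4 is known for keeping corticospinal axons on their side of the midline and was at 68.4 CPM in the members, against 261 CPM in the matched barcodes and 98.5 CPM in layer VI. Efna5 was at 128 and 69.9 CPM (1.83), and L1cam and Nrcam were near parity at 1.04 and 1.02.

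Against the matched barcodes, genes of the axonal cytoskeleton leaned to the members by small steps. All 14 counted lay within 2-fold, and their median of 1.25 stood above the 0.927 of all genes. The growth cone protein gene Gap43 was at 2498 and 1690 CPM (1.48, 1.43 to 1.52), Stmn3 had a ratio of 1.49, the neurofilament genes Nefl and Ina each 1.53 and the neuronal tubulin gene Tubb3 1.41. The motor gene Kif5c was the only gene of the list below parity (0.75). Nefm did not share the difference of Nefl, with a ratio of 1.01 (0.90 to 1.13). The steps were larger against layer VI, where depth was not matched. There 3 of 14 genes were at least 2-fold higher in the members and none lower, with a median of 1.58 beside 0.88 for all genes. The shares over all genes there were 2.45% and 7.92%.

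Of 15 genes for glutamate release and its receptors, the kainate receptor subunit Grik2 was at least 2-fold higher (2.93, 2.46 to 3.48), and Slc17a6 (0.09) and the NMDA receptor subunit Grin2a (0.47) at least 2-fold lower. Slc17a6 encodes the vesicular transporter VGLUT2 and was at 3.76 CPM in the members against 39.6 CPM, and the level of Slc17a7 (VGLUT1) was 17.7 against 33.7 CPM. Among 17 ion channel genes 1 was at least 2-fold higher, and the T-type calcium channel gene Cacna1g was the only 1 at least 2-fold lower (0.37). Medians of these lists were 0.84 and 0.90. Over all 8943 genes 1.42% were at least 2-fold higher and 5.58% at least 2-fold lower, with a median of 0.927.

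Genes that vary over the cortical surface or between corticospinal neurons of different cord levels were split against the matched barcodes. Of 7 counted, Bhlhe22 (2.18), Cdh8 (2.37) and Id2 (2.40) were at least 2-fold higher than in the matched barcodes, and Nr2f1 (0.40), Lmo4 (0.22) and Lhx2 (0.08) at least 2-fold lower. Over all genes 1.42% were higher and 5.58% lower by that limit. The matched set had 59 layer II/III and 112 layer IV barcodes. The lower levels therefore cannot be told apart from the choice of members. Against layer VI, 3 of 8 genes counted were at least 2-fold higher in the members and 1 lower, with a median of 1.42. The shares over all genes there were 2.45% and 7.92%. Nr2f1, an orphan receptor that is high in caudal and sensory areas, was at 163 CPM in the members, 453 CPM in layer IV and 221 CPM in layer VI. Thyroid hormone genes gave little beside Crym, with the receptor gene Thra at 0.98 and the hormone-responsive Klf9 at 0.30. In the list drawn up for partners of S100a10 (Anxa2, Ahnak, S100a11 and S100a6), only S100a11 was counted, at 30.1 against 7.64 CPM (3.94, 2.78 to 5.61). Anxa2 and Ahnak held too few UMIs to be counted, and binding was not examined. In the subplate list only Nr4a2 was counted (0.22).

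**Figure D4:**
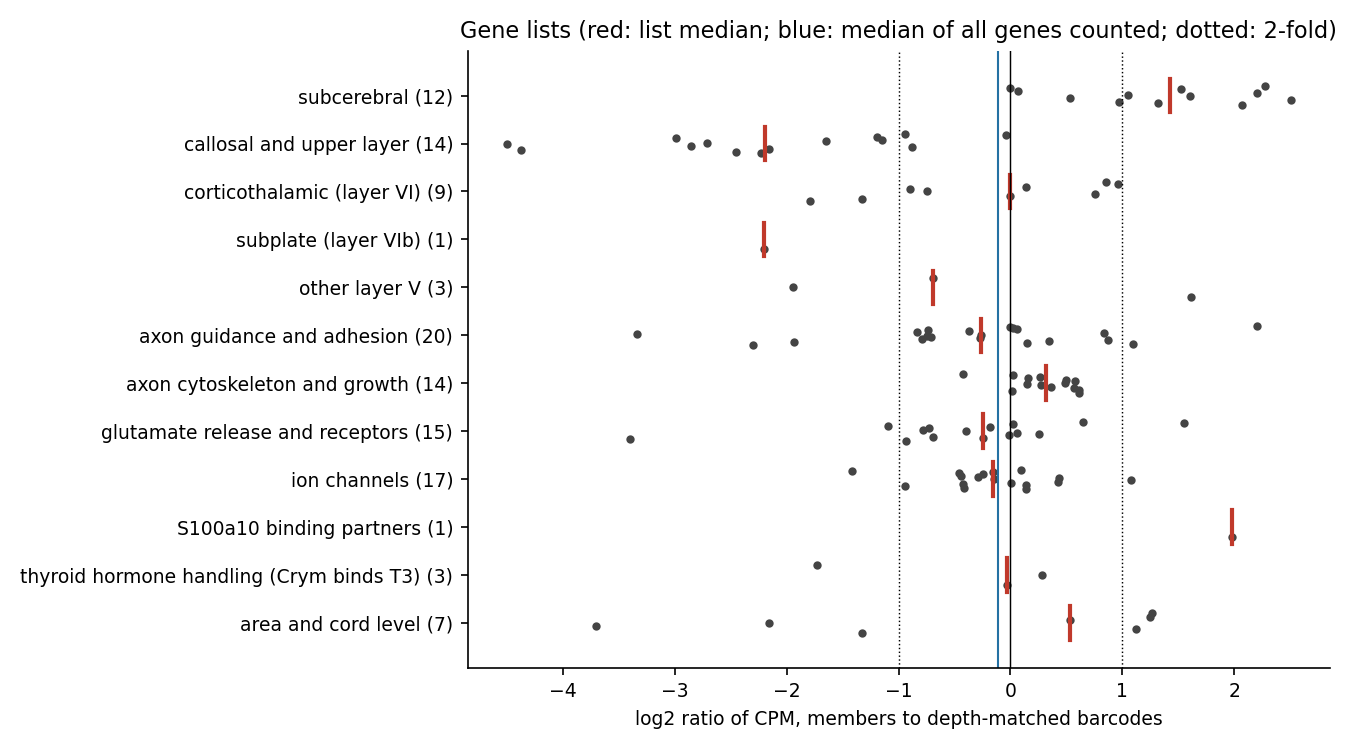
Log2 ratio of CPM, members to depth-matched barcodes (x), for each counted gene of the 12 lists (rows, number counted in brackets); red bars are list medians, the blue line the median of all 8943 genes and dotted lines 2-fold. The subcerebral list lies to the right, the callosal list to the left and the axon cytoskeleton genes in a narrow band just above 0.

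Genes at the centre of the study were low or moderate in the members. Glo1, the glyoxalase that breaks down methylglyoxal, was at 68.4 CPM in the members, against 45.3 CPM in the matched barcodes (1.51, 1.26 to 1.81), 48.2 CPM in layer VI and 45.5 CPM in layer IV. Hagh, the next enzyme of the same pathway, was at 25.2 and 36.5 CPM (0.69, 0.52 to 0.90). Serpina3n had no UMI in the members, which allows up to 1.13 CPM, and 3 UMIs in the matched barcodes. Rbfox3, which encodes NeuN, was at 104 CPM in the members against 208 CPM.

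Markers of other cell types differed in level. The 8 microglial genes summed to 0.75 CPM with 6 of them at 0 UMIs, the 5 endothelial genes to 1.13 CPM against 43.5 CPM in the matched barcodes, and the 5 interneuron genes to 4.89 CPM. These lists were low, whereas others held more UMIs. Radial glial and astrocytic genes summed to 42.9 CPM against 191 CPM, with Fabp7 at 16.5 CPM, oligodendrocyte precursor genes to 7.90 against 19.3 CPM and hippocampal genes to 22.9 against 128 CPM, of which Zbtb20 gave 21.4 CPM. Cajal-Retzius genes summed to 39.9 CPM, all from Reln, with Trp73 and Lhx5 at 0. Striatal genes summed to 203 CPM, of which Meis2 gave 196 CPM and Isl1 and Drd2 were at 0. Intermediate progenitor genes summed to 18.8 against 40.9 CPM, and activity and stress genes to 104 against 180 CPM. The part of these cells in the ratios of the matched barcodes was not tested.

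The mural list was the only other-cell list summed higher in the members than in the matched barcodes, at 47.0 CPM against 3.50 CPM. Of its 125 UMIs, all but 5 came from 1 of the 3 members that carried a single C gene. That barcode had 71 UMIs of Rgs5, 26 of Kcnj8 and 2 of Neurod6. None of these 3 barcodes had Bcl11b, Fezf2 or Crym, so their transcripts went against the label, and without them the mural list fell to 1.90 CPM. In the other 109 members the share of excitatory barcodes and the Bcl11b, Crym and Fezf2 ratios stayed within counting error of the values above, and the counts of higher and lower genes within 1.5 times.

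The members were not uniform. S100a10 was the most abundant C gene in 65 members and Fam19a1 in 42. Both are genes of the rule, so which of them led describes the choice and is no finding. The S100a10-led members were deeper, with a median of 28637 UMIs against 18749.5. Bcl11b (943 and 977 CPM), Fezf2 (221 and 245 CPM), Ldb2 (340 and 333 CPM) and Bhlhe22 (609 and 608 CPM) were alike in both within counting error. By contrast, Syt4 was 3.80-fold (3.32 to 4.37) and Pcp4 2.77-fold (2.17 to 3.58) higher in the S100a10-led members, and Nr2f1 was lower (125 against 249 CPM, a ratio of 0.50). Crym was also higher in them (333 against 217 CPM, 1.54, 1.29 to 1.83), and Etv1 lower (79.1 against 131 CPM, 0.60, 0.47 to 0.79). Only selected genes were compared in this split, so no share over all genes is given for it. Over 110 members thinned to 5000 UMIs, the Spearman correlation between S100a10 and Nr2f1 was -0.35 and between Fam19a1 and Pcp4 -0.34, given as a description of barcodes that share 1 library.

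Crym also varied among the members. If every member held it at the mean level, 1.80 members would have no Crym UMI. In the data 40 had none, among them the 3 members with a single C gene, and 63 had 3 or more. Other genes were also at 0 in more members than their mean level would give: Pcp4 in 30 against 3.52, Etv1 in 38 against 16.1 and Cntn6 in 22 against 10.6. The cause was not tested. In the 109 members with at least 2 C genes, 37 without Crym (median 20790 UMIs) were set beside 63 with 3 or more (median 25528 UMIs), a split made after the values were seen. Of 4046 genes with at least 100 UMIs in these members, 23 (0.568%) were at least 2-fold higher with Crym and 20 (0.494%) at least 2-fold lower, and the median ratio was 0.996. Some layer V genes differed little, while others did. Bcl11b was at 1058 CPM with Crym and 829 CPM without (1.28, 1.17 to 1.40), Fezf2 at 231 and 260 CPM and Ldb2 at 359 and 304 CPM. The rule gene S100a10 was at 625 and 643 CPM. The ratio, with Crym to without, was 1.73 (1.32 to 2.30) for Cntn6, 0.70 (0.54 to 0.92) for Etv1 and 0.59 (0.53 to 0.65) for Pou3f1.

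Members with Crym had more Pcp4 (285 against 99.2 CPM, 2.88, 2.25 to 3.71), Cdh13 (149 against 32.6 CPM, 4.57, 3.03 to 7.20) and Syt4 (1152 against 358 CPM, 3.22). Nfia was also higher, at 122 against 47.0 CPM (2.60). Cdh13 was therefore at parity over all members but present in 56 of the 63 members with Crym and in 9 of the 37 without. In layer VI, Cdh13 (243 CPM) and Nfia (802 CPM) were higher than in the members with Crym, and Pcp4 (103 CPM) and Syt4 (90.7 CPM) lower. Tle4, at 830 CPM in layer VI, was also higher with Crym (56.1 against 23.5 CPM, 2.39, 1.43 to 4.20). Of the rule genes, whose levels describe the choice, Tcerg1l had a ratio of 1.81 and Fam19a1 of 0.68.

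Sorcs1 was 4.60-fold (3.49 to 6.10) higher without Crym, the phosphatase genes Ptprr 5.15-fold and Ptprz1 3.35-fold, and the LIM-only gene Lmo3 2.46-fold. The neuropeptide gene Npy was at 545 CPM without Crym and 20.9 CPM with it, a ratio of 26.1 (18.5 to 38.0), but few barcodes carried it: 7 of the 37 members held 87.8% of its 418 UMIs, with 34 or more each, and 17 held none. Npy was at 376 CPM in the matched barcodes, 616 CPM in layer VI and 633 CPM in layer IV, so that of these sets the members with Crym were the low one. Over thinned members the Spearman correlation was 0.45 between Crym and Pcp4 and 0.33 between Crym and Bcl11b. Neither subset held a barcode of top doublet score.

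**Figure D5:**
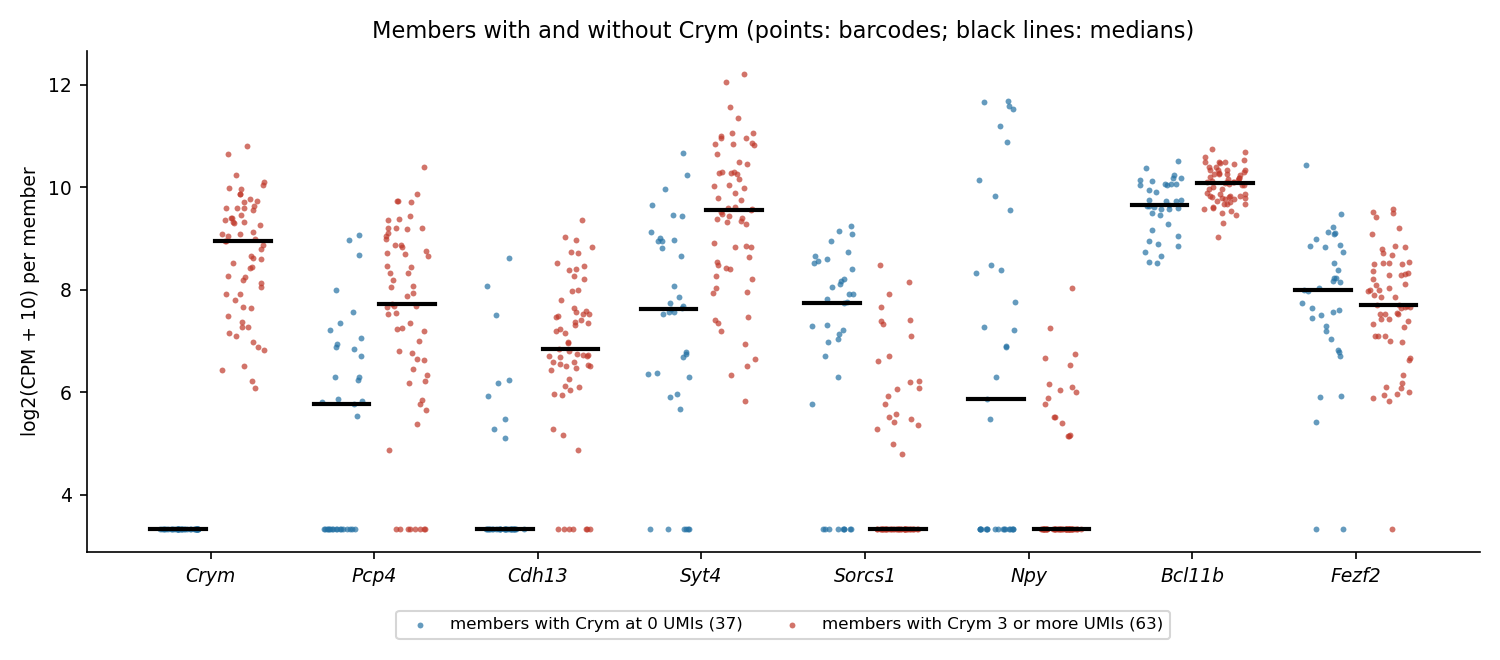
Level per member as log2(CPM + 10) (y) of 8 genes (x) in the 37 members without a Crym UMI (blue) and the 63 with 3 or more (red), among members with at least 2 C genes; points are barcodes and black lines medians. Pcp4, Cdh13 and Syt4 lie higher with Crym, Sorcs1 and Npy higher without it, and Bcl11b and Fezf2 overlap.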

How the data were processed

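The authors deposited raw UMI counts per gene and barcode from 1 library, with totals per barcode that equalled the column sums in all 11062 barcodes. Cells of papain-digested cortex were captured with a 10x Chromium kit. The submitters' processing notes name mm9, STAR, Cell Ranger version 2 and Seurat with no role, so no coordinates or sequences are given. The library held 90346034 UMIs (median 7196.5 per barcode), and its counting strand is not given in the sources used here.

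CPM is the summed UMIs of a gene over all UMIs except mitochondrial ones. Intervals are exact Poisson for levels, exact conditional binomial for ratios and Clopper-Pearson for shares. Genes were counted from 100 UMIs over both sets, and called at 2-fold. A count of 0 allows up to 3 UMIs. Matching took the 3 nearest log totals without replacement. Named genes were the 25 highest and 15 lowest ratios of CPM + 10, with a UMI in at least 25% of the barcodes of the higher set. The same was used against layer VI rule barcodes, and within the Crym split, with shorter lists; for these, examples were chosen after their values were seen. Members and lists were chosen with earlier results of these data known. Scrublet (scanpy 1.11.5) marked 0 barcodes at its own threshold and so did not work as a caller. The top 6% by score (691 barcodes with ties) were therefore used as an alternative, and none were removed. Python 3.11.15, numpy 2.4.6, scipy 1.17.1 and pandas 2.3.3 were used, and the code was tested on simulated data. A few genes of the lists and of the named genes, and a ratio fixed in the design, are not reported here.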

Additional observations from a re-analysis of the deposited data

How the results depend on the processing

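No level ratio of Bcl11b, Crym or Fezf2 reversed direction, and shares and counts of genes could not reverse by their definition. Of 126 recomputed values, 43 moved beyond counting error or 1.5 times. No paired analysis was possible because a single library was used. With C at least 3 times the other sums, members were 1.11% of excitatory barcodes and 84 of 7567 genes were higher. The Bcl11b and Crym ratios were 3.46 and 4.75. Choosing without Fam19a1 gave 0.975%, 78 of 7493 genes, 3.15 and 4.65. Without S100a10 the values were 0.916%, 78 higher and 293 lower of 6781 genes, 3.66 and 4.01 and Bcl11b over layer VI at 1.90. Without Tcerg1l the Bcl11b ratio was 3.95. In these settings, and after thinning, members that were no longer chosen could enter the matched barcodes. Their part in the changed ratios was not tested. Thinning to 5000 UMIs with members chosen anew at a C of at least 3 took 94 barcodes, 60 of them members. It gave 32 higher and 121 lower of 3391 genes counted, and 4 higher of 7 subcerebral genes counted. Bcl11b was 4.73 (1.60 over layer VI), Crym 6.86 and Fezf2 2.89. Without top doublet scores Bcl11b was 4.62. Against all other excitatory barcodes 476 of 13559 genes were higher and 1947 lower, with Bcl11b 6.66, Crym 7.45 and Fezf2 3.71. With 1 matched barcode per member, 237 of 6720 genes were lower, Bcl11b was 3.61 and Crym 3.66. Means over barcodes gave Bcl11b 4.82, Crym 7.22 and Fezf2 3.14. A minimum of 20 UMIs gave 333 higher and 1328 lower of 12915 genes, and no minimum 1534 and 1990 of 17193. A 3-fold limit gave 43 and 214 of 8943. Matched barcodes with C under 5, chosen after seeing the data, gave Bcl11b 8.48, Crym 9.93 and Fezf2 4.80; the members with at least 2 C genes, also chosen then, moved none. Causes were not tested. Single members with few UMIs of a gene cannot be told from members that lack it.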

Other observations

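The 419 excitatory barcodes with a C of at least 5 that failed the margin were compared with the members and the matched barcodes. Fezf2 was at 135 CPM in them, against 232 CPM in the members and 92.7 CPM in the matched barcodes, and Bhlhe22 at 359 CPM against 613 and 281 CPM. Bcl11b was at 257 CPM (246 to 268), against 959 CPM in the members and 228 CPM in the matched barcodes, and Crym at 52.4 CPM against 301 and 53.1 CPM. However, 115 matched barcodes are among these 419, and Bcl11b was at 115 CPM in the matched barcodes with a C under 5. The B sum failed 346 of them, the A sum 250 and the D sum 45. Their median C was 8 UMIs, and 12.6% had a top doublet score, against 0.893% of the members.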
